A study of Homo sapiens with 9 samples.

Results

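The ADAM and ADAMTS metalloproteinases were examined in HEK293 cells, an established line from human embryonic kidney, that stably expressed HA-tagged MEK1 as WT, with the RASopathy-associated F53S substitution, or with the cancer-associated K57N substitution. RNA of each line was measured on 3 one-colour expression arrays, 9 arrays in all, with replicate 1 of every line on slide 1 and replicates 2 and 3 on slide 2. Each form of MEK1 is represented by a stable line, so a feature of that line and an effect of its mutation cannot be told apart. Members were all genes and transcripts whose probe name begins with ADAM, ADAMTS or ADAMTSL followed by a digit, or with ADAMDEC, and they came to 54 of the 38771 genes and transcripts on the array. Of these, 21 were ADAM genes, 19 were ADAMTS genes, 5 were ADAMTS-like genes, and 9 were pseudogenes or antisense RNAs.

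ADAM proteins are mostly membrane-anchored proteases that cut the extracellular part of other membrane proteins, a step called shedding, and thereby release growth factors, cytokines and receptor fragments. ADAMTS proteins are secreted proteases with thrombospondin repeats that act on the extracellular matrix and on plasma proteins, whereas ADAMTS-like proteins carry the repeats without a protease domain. MEK1 activates the kinase ERK, and ERK signaling is known to act on shedding as well as on transcription of several shed growth factors. Arrays report RNA only, and neither protein nor protease activity was measured.

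Signal on each array is given as log2 of the processed signal less that array's 75th percentile, so a value of 0 stands for a probe at that percentile. The 75th percentile itself was lower on slide 1, at 285 in WT 1, 245 in F53S 1 and 376 in K57N 1, than on slide 2, at 816 and 695 in WT, 776 and 735 in F53S, and 821 and 798 in K57N. The share of probes well above background ran from 46.9% in F53S 1 to 57.9% in F53S 2. Testing was limited to probes that stood well above background on 3 of 3 arrays in 1 line or more, and a gene was represented by its brightest tested probe. A gene was called where limma gave a Benjamini-Hochberg adjusted p below 0.05 over all probes tested together with a difference of more than 2-fold. These p-values measure the spread between arrays of a line, which may be technical, although the methods describe 3 independent experiments.

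The lines were first checked with 14 transcripts that report ERK output, such as dual-specificity phosphatases and ETS factors. DUSP6, a phosphatase of ERK, read −3.33, −1.70 and −2.01 in WT, 0.51, 0.49 and 0.65 in F53S, and 4.06, 4.01 and 3.86 in K57N. The 3 lines did not overlap. In K57N, 12 of the 14 were called higher against WT (1.51% of all genes tested), and 13 with slide as a term (2.56% of all genes tested). Of these, DUSP5, SPRY4, ETV4, ETV5 and PHLDA1 were well above background on 2 of 3 WT arrays and were tested through the mutant lines alone, so the counts are descriptions and the size of those differences is uncertain. In F53S, all 14 differences were positive but none was called, with or without slide as a term. For DUSP6 the difference of 2.90 had an adjusted p of 0.352, and of 0.0835 with slide as a term. On slide 2 alone, ETV4 was called higher in F53S (2.88, limma adjusted p = 0.0383). MAP2K1, which encodes MEK1, read 0.48 higher in K57N than in WT (SE 0.13, adjusted p = 0.135) and 0.08 higher in F53S. K57N was higher than WT in 3 of 3 pairs of equal replicate number, without overlap. The adjusted p of MAP2K1 in K57N was 0.00758 with slide as a term, under 2-fold. Whether its probe reads the introduced coding sequence was not tested.

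Markers of HEK293 and of other cell types were set beside the labels. Of 8 genes known in HEK293 cells, 6 were well above background on all 9 arrays, with NEFM and INA as the exceptions and KRT18 as the brightest. Their summed level, in multiples of the array's 75th percentile, was 307, 246 and 246 in WT, 387, 255 and 260 in F53S, and 403, 341 and 344 in K57N. Among 6 fibroblast markers, COL1A1 was well above background on all 9 arrays and was the brightest, while COL1A2, DCN and PDGFRB were on none. COL3A1, not tested, was well above background on 2 arrays of WT, 2 of F53S and 0 of K57N. It read lower in K57N than in WT in 3 of 3 pairs. LUM was well above background on 2 arrays of each line, and its lines overlapped. The fibroblast sum was 1.42, 0.846 and 0.962 in WT, 1.14, 0.794 and 0.818 in F53S, and 0.508, 0.512 and 0.456 in K57N, so all 3 K57N arrays lay lowest. Endothelial markers were measured on all 9 arrays for 2 of 3 genes, led by VWF, and none of the 3 was missing from every array. VWF was lower in K57N than in WT in 3 of 3 pairs (−0.85, adjusted p = 0.166), whereas PECAM1, well above background on 2 K57N arrays alone and not tested, read higher in 3 of 3 pairs. With slide as a term the adjusted p of VWF was 0.00579, under 2-fold. The endothelial sum was 0.550, 0.283 and 0.351 in WT, 0.473, 0.274 and 0.298 in F53S, and 0.349, 0.351 and 0.295 in K57N.

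Of 5 testis germ cell markers, looked at because several ADAM genes are known from sperm, none was well above background on all 9 arrays, and TNP1, ODF1 and ACRV1 were on none. PRM2 was the brightest of that list, and its sum was 0.369, 0.0769 and 0.142 in WT, 0.372, 0.0732 and 0.143 in F53S, and 0.226, 0.105 and 0.0875 in K57N. Fewer cells of a type and less RNA per cell cannot be told apart in these bulk samples, and the part of these marker levels in the results was not tested.

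Of the 54 members, 29 were tested, and 26 of those were well above background on all 9 arrays. Tested genes were 11 of 21 among ADAM, 13 of 19 among ADAMTS and 3 of 5 among ADAMTS-like genes, with 2 of the 9 pseudogenes and antisense RNAs, ADAM1A and ADAMTS7P1. By role, 8 of 12 ADAM genes with a complete zinc-binding site were tested, against 3 of 8 ADAM genes that lack one (ADAM11, ADAM22 and ADAM23, which are known as neuronal membrane proteins). Proteoglycan-cleaving ADAMTS genes were tested for 5 of 7, procollagen N-propeptidases for 2 of 3, and genes that cleave cartilage oligomeric matrix protein for 1 of 2. ADAMTS13, the protease of von Willebrand factor, and 4 of the remaining 6 ADAMTS genes were tested as well. Of the 25 members that were not tested, 14 had a probe well above background on some array.

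**Figure D1:**
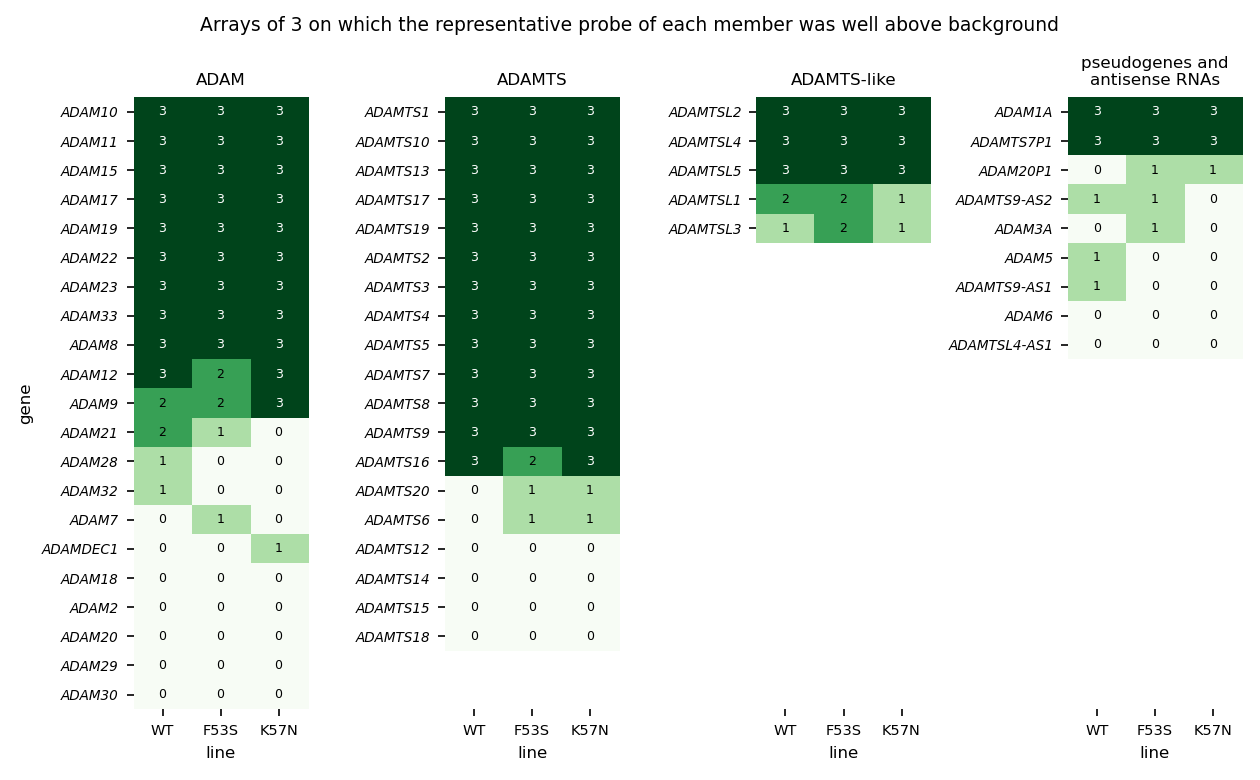
Number of arrays, of 3 in each line (columns), on which the representative probe of each of the 54 members (one gene a line of the plot, in 4 panels by group) was well above background. Of the 29 tested members, 26 reached 3 of 3 in every line, and ADAM9, ADAM12 and ADAMTS16 fell short on at least 1 array.

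The other 11 untested members were above background on no array with any probe. They were ADAM2, ADAM18, ADAM20, ADAM29 and ADAM30, which are known mainly from testis, the pseudogene ADAM6, the proteases ADAMTS12, ADAMTS14, ADAMTS15 and ADAMTS18, and the antisense RNA ADAMTSL4-AS1. ADAM20, ADAM21 and ADAM20P1 are known as relatives, as are ADAMTS7 and ADAMTS7P1. Their probes may read RNA of more than 1 of them, which was not tested.

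In K57N against WT, ADAMTS9 rose and ADAMTS8 fell, and both belong to the proteoglycan-cleaving ADAMTS genes. That was 1 of 29 tested members called higher, where 1.51% of the 19274 genes tested were called higher, and 1 of 29 called lower, where 0.742% were. A model with slide as a term called 1 member higher (2.56% of all genes) and 2 lower (1.97% of all genes), the added gene being ADAMTS10. None of the 11 tested ADAM genes was called by limma on its brightest tested probe, with or without slide as a term, while a dimmer probe of ADAM10 passed with slide as a term. At an unadjusted p below 0.05 and 2-fold, limma and the methods' t-test each gave ADAMTS9 higher and ADAMTS8 and ADAMTS10 lower on the brightest tested probes, and no ADAM gene. The dimmer ADAM10 probe also met that limit by limma, as its values below show. Of all 19274 genes, limma then gave 504 higher and 375 lower, and the methods' t-test gave 441 and 313. After Benjamini-Hochberg adjustment the methods' t-test called 0 members in either direction. That test takes its name from the Student's t-test in the paper's general statistics section, which names ANOVA as well. The paper's methods for the arrays name no test, so its use on the arrays is inferred.

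ADAMTS9 encodes a secreted protease that cleaves the proteoglycans aggrecan and versican. Its signal was −2.02, −3.34 and −3.01 in WT, −2.47, −2.52 and −2.97 in F53S, and −0.87, −1.33 and −1.23 in K57N. The lowest K57N array lay above the highest WT and F53S arrays, and WT and F53S overlapped. The difference of K57N from WT was 1.65 on the log2 scale (SE 0.34, limma adjusted p = 0.0456), with K57N higher in 3 of 3 pairs of equal replicate number. It was 1.15 on slide 1 and 1.90 on slide 2, and the adjusted p was 0.00241 with slide as a term. Over the alternatives tried, the adjusted p ran from 0.00241 to 0.233.

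The call of ADAMTS9 depended on single arrays. Leaving out WT 2 or WT 3 gave an adjusted p of 0.146 or 0.172, leaving out F53S 2 or F53S 3 gave 0.0832 or 0.0726, and leaving out K57N 1, K57N 2 or K57N 3 gave 0.152, 0.125 or 0.148. Without WT 1 it was 0.00796, and the difference over these fits ran from 1.37 to 2.03. The call of ADAMTS9 was also lost with normexp background correction (1.15, adjusted p = 0.199), without the filter on dim probes (0.183), with only probes well above background on all 9 arrays (0.0519), and by the methods' t-test (0.233). Its probe maps to chr3:64501589-64501648 in hg19. The antisense transcripts ADAMTS9-AS1 and ADAMTS9-AS2 were not tested.

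ADAMTS8 encodes a related protease with a weaker known action on aggrecan. It read 0.28, −0.05 and −0.08 in WT, −0.03, −0.27 and −0.20 in F53S, and −0.90, −1.17 and −1.11 in K57N. All 3 K57N arrays lay below every WT and F53S array, while WT and F53S overlapped. In K57N the signal fell by 1.11 on the log2 scale against WT (SE 0.17, limma adjusted p = 0.0133), lower in 3 of 3 pairs. The difference was −1.18 on slide 1 and −1.07 on slide 2, with an adjusted p of 1.76e-04 with slide as a term and a range of 1.76e-04 to 0.121 over the alternatives.

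The call of ADAMTS8 ended when single arrays were left out. Leaving out WT 1 gave −0.99 (adjusted p = 0.0362), under 2-fold, and leaving out WT 2, WT 3, K57N 2 or K57N 3 gave −1.16, −1.17, −1.05 or −1.08 with an adjusted p of 0.0536, 0.0517, 0.0786 or 0.0764. The call also ended with normexp background correction (−0.92, adjusted p = 0.0307), without the filter on dim probes (0.121) and by the methods' t-test (0.0876). Its probe maps to chr11:130274820-130274879 in hg19. The neighbouring ADAMTS15, whose probe lies 68.2 kb away, was above background on no array.

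**Figure D2:**
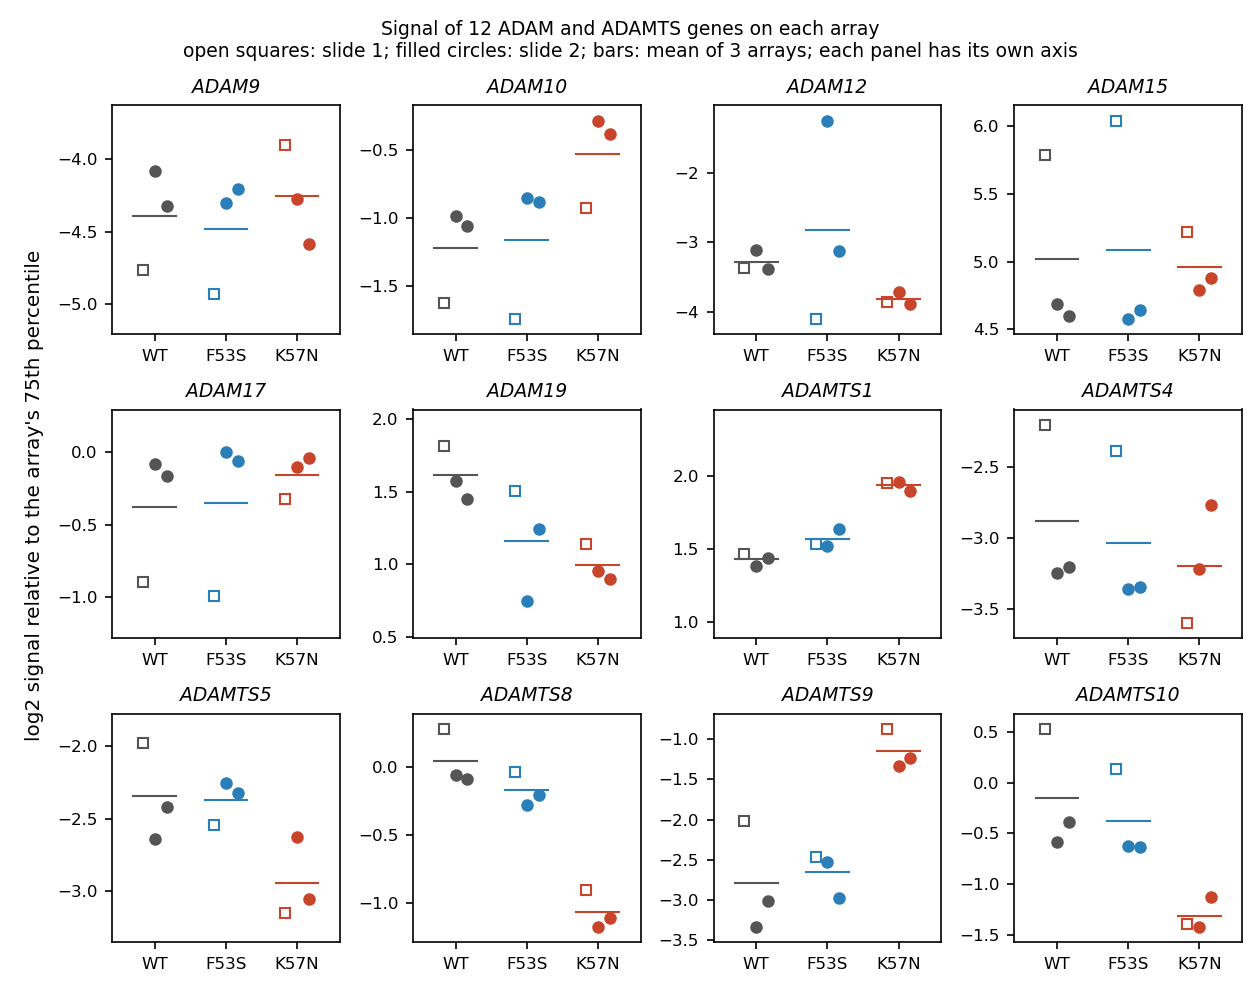
Log2 signal relative to the array's 75th percentile (vertical axes, 1 per panel) of 12 ADAM and ADAMTS genes in WT, F53S and K57N cells, with a point for each array, open squares for slide 1, filled circles for slide 2, and a bar for the mean of 3 arrays. The K57N arrays lie apart from all WT and F53S arrays for ADAMTS1, ADAMTS8, ADAMTS9 and ADAMTS10, whereas the ADAM17 arrays of all 3 lines overlap.

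ADAMTS1, a protease of aggrecan and versican, read 1.46, 1.38 and 1.44 in WT, 1.53, 1.52 and 1.64 in F53S, and 1.96, 1.96 and 1.90 in K57N. No array of any line overlapped with another line, and the spread within lines was small. K57N was 0.51 above WT (SE 0.13, adjusted p = 0.106), below the 2-fold limit, at 0.49 on slide 1 and 0.52 on slide 2. Over the alternatives the adjusted p ran from 0.00608, with slide as a term, to 0.617. F53S was 0.14 above WT, with an adjusted p of 0.999998.

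The aggrecanases ADAMTS4 and ADAMTS5 were not called. ADAMTS4 read −2.20, −3.24 and −3.20 in WT, −2.39, −3.36 and −3.35 in F53S, and −3.60, −3.22 and −2.77 in K57N. The lines overlapped, and the difference of K57N from WT changed sign between slide 1 (−1.40) and slide 2 (0.23), with −0.31 over both (SE 0.39, adjusted p = 0.905). ADAMTS5 read −1.98, −2.64 and −2.42 in WT, −2.54, −2.25 and −2.32 in F53S, and −3.15, −2.63 and −3.05 in K57N. K57N 2 lay at the level of WT 2, and the other K57N arrays lay below all others. ADAMTS5 differed between K57N and WT by −0.60 (SE 0.22, adjusted p = 0.282), at −1.17 on slide 1 and −0.31 on slide 2. ADAMTS1 and ADAMTS5 are neighbours on chromosome 21, with probes 80.5 kb apart, and their differences of 0.51 and −0.60 had opposite signs.

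ADAMTS10 encodes a protease that binds fibrillin microfibrils. Its signal was 0.53, −0.59 and −0.39 in WT, 0.13, −0.63 and −0.63 in F53S, and −1.40, −1.42 and −1.13 in K57N. All K57N arrays lay below all others, but WT 1 and F53S 1, both on slide 1, stood well above the slide 2 arrays of their lines. K57N was at −1.17 from WT (SE 0.33, adjusted p = 0.133), at −1.93 on slide 1 and −0.79 on slide 2. The call of ADAMTS10 began with slide as a term (adjusted p = 0.0126) and with replicate number as a block (0.0231), and over the alternatives the adjusted p ran from 0.0126 to 0.430. Its probe maps to chr19:8645126-8645185 in hg19.

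ADAMTS13 was named after its values were seen, because its adjusted p passed the limit while its difference stayed under 2-fold. Its brightest probe read 1.96, 1.76 and 1.71 in WT, 1.76, 1.72 and 1.63 in F53S, and 0.87, 0.82 and 1.06 in K57N. All K57N arrays lay below all others. The difference of K57N from WT was −0.89 (SE 0.15, adjusted p = 0.0204), at −1.09 on slide 1 and −0.79 on slide 2, and over the alternatives the adjusted p ran from 0.00153 to 0.672. A further tested probe of the gene gave −0.03 (adjusted p = 0.996), so its probes disagreed.

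In the RefSeq promoter table used here (build GRCh38.p14), 31 of the 54 members had an entry, with 32 promoters in all, and ADAMTS8 and ADAMTS9 had none. ADAMTS10 and ADAMTS13 had entries and are shown. The 250 bases before the start are printed 5′ to 3′ for both, with capitals on each match to GGGCGG, the core letters bound by SP1, on either strand. For ADAMTS10 the stretch is chr19:8610716-8610965 on the minus strand, with 5 matches, and a further start of the gene has none. For ADAMTS13 it is chr9:133422117-133422366 on the plus strand, with 2 matches.
ADAMTS10: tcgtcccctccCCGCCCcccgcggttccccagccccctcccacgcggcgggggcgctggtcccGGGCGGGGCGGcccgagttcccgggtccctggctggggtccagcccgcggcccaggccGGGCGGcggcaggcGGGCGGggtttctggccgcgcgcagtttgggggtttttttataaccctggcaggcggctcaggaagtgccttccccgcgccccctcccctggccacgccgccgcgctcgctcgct
ADAMTS13: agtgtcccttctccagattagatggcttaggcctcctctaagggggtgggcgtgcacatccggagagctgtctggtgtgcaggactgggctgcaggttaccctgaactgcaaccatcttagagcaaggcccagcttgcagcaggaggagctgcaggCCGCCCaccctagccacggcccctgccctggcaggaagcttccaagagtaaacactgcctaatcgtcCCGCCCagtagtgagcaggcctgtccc

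The GGGCGG letters were found in 22 of the 32 member promoters (68.8%), in 7 of 12 ADAM promoters and in 11 of 13 ADAMTS promoters. Over all 35116 promoters in the table, 42.6% held them in the same window. Motifs of factors downstream of ERK were searched on both strands as well. TGANTCA (AP-1) was in 1 member promoter, that of ADAMTS12, against 6.57% of all promoters, and CCGGAAG (ETS) was in 1, that of ADAM17, against 8.52%. GCGTGGGCG (EGR) and TGACGTCA (CRE) were in 0 of the 32, against 0.721% and 1.65% of all promoters. These matches describe letters in the window and are not evidence of binding.

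Among the other ADAMTS genes no difference between K57N and WT passed the test. ADAMTS2 and ADAMTS3, which remove the N-propeptide of procollagens, were at −0.28 (SE 0.35) and −0.30 (SE 0.26), and ADAMTS3 is also known to activate VEGFC. ADAMTS7, which cleaves cartilage oligomeric matrix protein, was at −0.19 (SE 0.44). ADAMTS16, ADAMTS17 and ADAMTS19 were between −0.31 and −0.14. Among the ADAMTS-like genes, ADAMTSL2, ADAMTSL4 and ADAMTSL5 were at 0.18, −0.43 and 0.07, with adjusted p-values of 0.973, 0.766 and 0.992. ADAMTSL4 is known as a partner of fibrillin microfibrils.

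The ADAM sheddases ADAM10 and ADAM17 process many of the same membrane proteins. ADAM10, the main protease of Notch receptors at the cell surface, read −1.62, −0.98 and −1.06 in WT, −1.74, −0.86 and −0.88 in F53S, and −0.93, −0.28 and −0.38 in K57N. Slide 1 read lower than slide 2 in every line, and K57N lay above WT without overlap only because K57N 1 passed WT 2 narrowly. The difference of K57N from WT was 0.69 (SE 0.31, adjusted p = 0.398), and it was 0.69 on each slide. Over the alternatives the adjusted p ran from 0.00329, with slide as a term, to 0.908, always under 2-fold. A further tested probe gave 1.20 (limma unadjusted p = 0.0186, adjusted p = 0.223), with 2.13 on slide 1 and 0.74 on slide 2. It met both limits with slide as a term (0.0181) and with replicate number as a block (0.0338), fell under 2-fold on slide 2 alone (0.00387), and was well above background on 2 of 3 WT arrays.

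ADAM17, the sheddase of TNF and of several ligands of the EGF receptor, read −0.90, −0.08 and −0.17 in WT, −0.99, 0.00 and −0.07 in F53S, and −0.33, −0.11 and −0.04 in K57N. The lines overlapped throughout, with WT 1 and F53S 1 the lowest. K57N was 0.22 above WT (SE 0.32, adjusted p = 0.931), at 0.57 on slide 1 and 0.05 on slide 2. ADAM9, a sheddase of broad expression, read −4.76, −4.08 and −4.32 in WT, −4.93, −4.30 and −4.20 in F53S, and −3.91, −4.28 and −4.58 in K57N. It was well above background on 2 arrays of WT, 2 of F53S and 3 of K57N, and the lines overlapped. K57N was 0.13 above WT (SE 0.28, adjusted p = 0.972), with opposite signs on slide 1 (0.86) and slide 2 (−0.23).

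ADAM12 and ADAM19, the meltrins, are known from muscle and bone and from shedding of neuregulin. ADAM12 read −3.37, −3.10 and −3.37 in WT, −4.10, −1.26 and −3.12 in F53S, and −3.86, −3.71 and −3.88 in K57N. F53S 2 stood far above the other 8 arrays, F53S 1 was the lowest, and the K57N arrays lay below all WT arrays. K57N was at −0.53 from WT (SE 0.59, adjusted p = 0.878), at −0.49 on slide 1 and −0.56 on slide 2, and a further tested probe, used when all 9 arrays had to be well above background, gave 0.19. Leaving out F53S 2 turned the difference of F53S from WT from 0.46 to −0.33.

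ADAM19 read 1.81, 1.57 and 1.45 in WT, 1.50, 0.74 and 1.24 in F53S, and 1.14, 0.95 and 0.90 in K57N. All WT arrays lay above all K57N arrays, and F53S overlapped with both. ADAM19 was at −0.61 in K57N against WT (SE 0.22, adjusted p = 0.250), at −0.67 on slide 1 and −0.59 on slide 2. The adjusted p was 0.0225 with slide as a term, under 2-fold, and ran from 0.0225 to 0.754 over the alternatives. F53S was at −0.45 from WT, with an adjusted p of 0.999998.

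ADAM15, a protease known for binding integrins, read 5.78, 4.69 and 4.60 in WT, 6.04, 4.58 and 4.65 in F53S, and 5.22, 4.79 and 4.88 in K57N. Slide 1 was higher than slide 2 in each line, and the lines overlapped. The difference of K57N from WT was −0.06 (SE 0.45, adjusted p = 0.991), at −0.57 on slide 1 and 0.19 on slide 2. ADAM8 and ADAM33 were at −0.31 and 0.06, also with slides of opposite sign. Among the ADAM genes without a complete zinc-binding site, ADAM11, ADAM22 and ADAM23 were at −0.57, −0.07 and −0.15. ADAM11, named after its values were seen, had an adjusted p of 0.359, and of 0.00825 to 0.902 over the alternatives, the lowest with slide as a term.

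**Figure D3:**
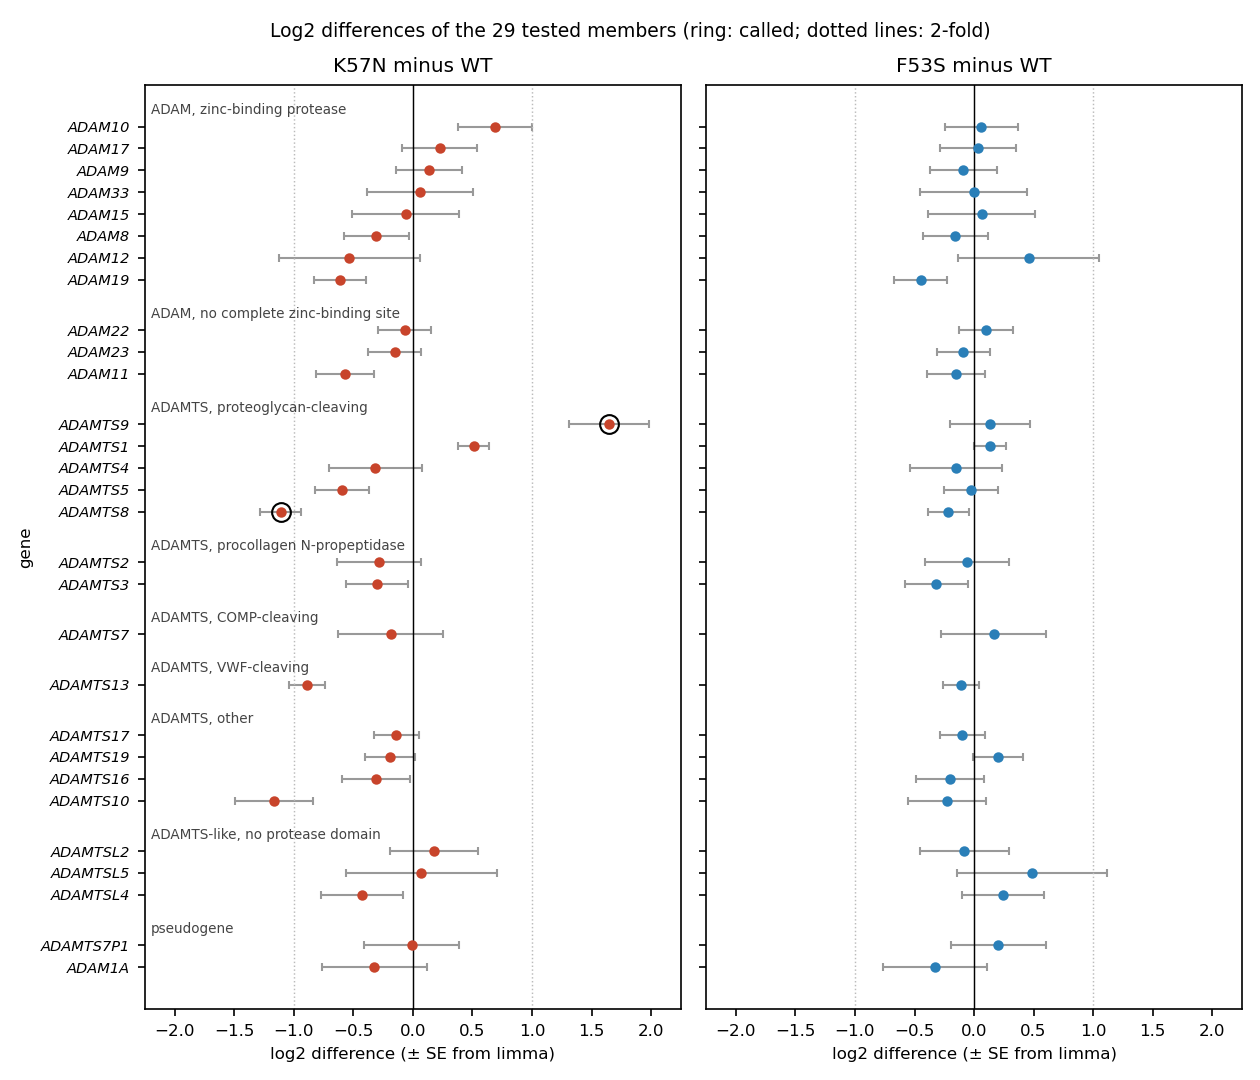
Log2 differences of K57N from WT (left) and of F53S from WT (right) for the 29 tested members, grouped by role, with bars of 1 SE from limma on each side, rings on called genes and dotted lines at 2-fold. Both comparisons share the 3 WT arrays, ADAMTS9 at 1.65 and ADAMTS8 at −1.11 carry rings in K57N, and all F53S differences lie between −0.45 and 0.49.

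By group, the median log2 difference of K57N from WT was −0.07 over the 11 tested ADAM genes (4 positive) and −0.30 over the 13 tested ADAMTS genes (2 positive). Over all 29 tested members it was −0.19 (8 positive), and over all 19274 genes tested it was −0.06 (42.9% positive). The 2 positive ADAMTS genes were ADAMTS1 and ADAMTS9. Across the settings tried after the data had been seen, the median of the ADAMTS group ran from −0.31 to −0.21 and that of the ADAM group from −0.15 to −0.04, with the sign kept in all of them. Leaving out 1 array at a time gave −0.50 (without WT 2) to −0.13 (without WT 1) for the ADAMTS group and −0.23 (without WT 1) to −0.02 (without K57N 3) for the ADAM group. These medians are descriptions of members that passed the filter and carry no test.

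With the limit on fold set aside, 3 members had an adjusted p below 0.05 between K57N and WT (ADAMTS8, ADAMTS9 and ADAMTS13), where 2.76% of all genes did. There were 8 with slide as a term (ADAM10, ADAM11, ADAM19, ADAMTS1, ADAMTS8, ADAMTS9, ADAMTS10 and ADAMTS13), when 19.4% of all genes did. By the methods' t-test ADAMTS1 alone passed (adjusted p = 0.0368), where 0.830% of all genes did. For 14 members more than 1 probe was tested, and in 4 of them (ADAM12, ADAM23, ADAM33 and ADAMTSL5) the probes gave differences of opposite sign. The probes differed by more than 0.5 in 3 (ADAM10, ADAM12 and ADAMTS13).

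In F53S against WT, limma called 0 of 29 members higher and 0 lower, where 0% of all genes were called higher and 0% lower. The model with slide as a term again called 0 members higher (0% of all genes) and 0 lower (0% of all genes). At an unadjusted p below 0.05 and 2-fold, limma gave 0 members and, of all genes, 40 higher and 6 lower, and the methods' t-test gave 0 members and 25 genes, all higher. Differences ran from −0.45 (ADAM19) to 0.49 (ADAMTSL5), and every adjusted p was 0.999998. The median was −0.00457 over the ADAM genes, −0.10 over the ADAMTS genes (4 of 13 positive) and 0.01 over all genes. Under the other settings the ADAM median changed sign in 2 of 9, and without WT 1 the ADAMTS median was 0.11.

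K57N was also compared with F53S directly, on the same K57N and F53S arrays, since a difference called in 1 mutant alone does not show that the mutants differ. Limma called 0 of 29 members higher (0.96% of all genes) and 0 lower (0.249% of all genes), and at an unadjusted p below 0.05 and 2-fold it gave ADAMTS9 alone, higher, as did the methods' t-test. Of all genes, 385 were higher and 236 lower at that limit by limma, and 334 and 167 by the methods' t-test. Adding slide as a term called 1 member higher, ADAMTS9 (1.89% of all genes), and 0 lower (1.11% of all genes). For ADAMTS9 the difference was 1.51 (SE 0.34, adjusted p = 0.0927), at 1.60 on slide 1 and 1.47 on slide 2. It was called with slide as a term (adjusted p = 0.00527), with replicate number as a block (0.0129), with quantile normalization (0.0448), on slide 2 alone (0.0148) and without WT 1 (0.0208), over a range of 0.00527 to 0.395.

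ADAMTS8 and ADAMTS13 were at −0.89 and −0.79 in that comparison, with adjusted p-values of 0.0516 and 0.0524. These were 8.74e-04 and 0.00413 with slide as a term, under 2-fold in both cases, over ranges of 8.74e-04 to 0.353 and 0.00413 to 0.835. ADAMTS10 was at −0.94 (adjusted p = 0.327) and ADAM10 at 0.63 (adjusted p = 0.583), with 0.0373 and 0.00718 when slide was a term. The ranges over the alternatives were 0.0366 to 0.845 and 0.00718 to 0.999992. ADAM12 was at −0.99 (adjusted p = 0.722), and at −0.21 without F53S 2.

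Lists of regulators and substrates of these proteases were examined as their partners, with 20, 25 and 26 genes. Of the 20 regulators (inhibitors, rhomboid cofactors, tetraspanins, furin-like convertases and glycosylation enzymes) all were tested, and TIMP1 was called higher in K57N against WT. Of 25 membrane proteins shed by ADAMs, 17 were tested and 3 were called higher (AREG, CD44 and IL6R). Of 26 matrix and plasma substrates and partners of ADAMTS proteins, 18 were tested, with TFPI2 and VEGFC called higher and PAPLN called lower. Over all genes tested, 1.51% were called higher and 0.742% lower. AREG and IL6R passed the filter on dim probes only through K57N, the line in which they were high, and IL6R was not called when that filter was left out, so the counts and medians of the lists are descriptions alone. The median log2 differences of the lists were −0.24, 0.30 and −0.29, beside −0.06 over all genes, and 13 of the 17 shed proteins were positive. None was called in F53S against WT by limma, with or without slide as a term.

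TIMP1 encodes a secreted inhibitor of matrix metalloproteinases and of ADAM10. It read 4.23, 3.35 and 3.31 in WT, 4.67, 3.51 and 3.53 in F53S, and 8.24, 7.01 and 7.09 in K57N. All K57N arrays lay far above all others, and WT and F53S overlapped. TIMP1 rose by 3.82 in K57N against WT (SE 0.45, adjusted p = 0.00425), at 4.01 on slide 1 and 3.72 on slide 2. Against F53S it was 3.55 higher (SE 0.45, adjusted p = 0.0103), and without F53S 2 or F53S 3 that adjusted p was 0.0545 or 0.0602. By the methods' t-test the adjusted p was 0.0884 against WT and 0.167 against F53S, over ranges of 1.63e-06 to 0.0884 and 2.84e-06 to 0.167. The other 19 regulators, TIMP2, TIMP3 and TIMP4 among them, were not called.

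AREG encodes amphiregulin, a ligand of the EGF receptor released by ADAM17. It read −5.77, −4.54 and −5.10 in WT, −5.55, −4.63 and −4.42 in F53S, and −0.28, −1.28 and −1.23 in K57N. AREG was well above background on 1 array of WT, 2 of F53S and 3 of K57N, so it was tested through K57N alone and its differences from the other lines are uncertain in size. Every K57N array lay above the other lines. AREG was 4.21 above WT (SE 0.43, adjusted p = 0.00219), at 5.49 on slide 1 and 3.57 on slide 2. Against F53S it was 3.94 higher (SE 0.43, adjusted p = 0.00541). With no filter on dim probes, which removes the choice of probes by K57N, AREG kept its call in K57N against WT (adjusted p = 0.00984) and in K57N against F53S (0.0272). With normexp background correction the differences were smaller, at 2.06 from WT and 1.89 from F53S, and the call against F53S was lost (0.109), while both calls were lost by the methods' t-test (0.0701 and 0.110). The ranges over the alternatives were 6.57e-04 to 0.0701 and 0.00148 to 0.110.

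CD44, the hyaluronan receptor shed by ADAM10 and ADAM17, read 2.84, 2.80 and 2.73 in WT, 3.05, 2.80 and 2.90 in F53S, and 4.44, 4.01 and 4.04 in K57N. All K57N arrays lay above all others. CD44 rose by 1.37 against WT (SE 0.17, adjusted p = 0.00520), at 1.60 on slide 1 and 1.25 on slide 2, and was 1.24 above F53S (SE 0.17, adjusted p = 0.0133). The call against F53S was lost without F53S 2 (0.0832), F53S 3 (0.0830), K57N 2 (0.0554) or K57N 3 (0.0620). With the mean of its tested probes the differences were 1.07 and 1.02, with adjusted p-values of 0.0876 and 0.160, and both calls were also lost without the filter on dim probes and by the methods' t-test. Over the alternatives the ranges were 1.63e-04 to 0.0876 against WT and 4.44e-04 to 0.160 against F53S.

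IL6R, the interleukin-6 receptor, gives a soluble receptor after shedding. It read −3.99, −4.05 and −3.40 in WT, −4.24, −3.43 and −3.94 in F53S, and −1.77, −2.16 and −2.12 in K57N, and was well above background on 2, 2 and 3 arrays, so it too was tested through K57N alone. All K57N arrays lay above all others, by 2.22 on slide 1 and 1.59 on slide 2 against WT. The mean differences were 1.80 from WT and 1.85 from F53S (SE 0.27), and 0.85 and 0.81 with normexp background correction. In the fit with no filter on dim probes, which does not choose probes by K57N, IL6R was not called against WT (adjusted p = 0.0662) or F53S (0.104), so no change is stated for it. Over the alternatives the adjusted p ran from 0.00314 to 0.312 against WT and from 0.00423 to 0.512 against F53S.

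Slide as a term raised the shed proteins called higher in K57N against WT to 5, adding the neuregulin NRG1 and the Notch ligand JAG1, and the receptor ERBB4 was called lower. The share of all genes called higher rose from 1.51% to 2.56% in that model, and the share called lower from 0.742% to 1.97%. NRG1 was at 1.57 (adjusted p = 0.0947 without slide and 0.0148 with it), JAG1 at 1.01 (0.0583 and 0.00829) and ERBB4 at −1.78 (0.134 and 9.44e-04). The within-slide differences were 2.78 and 0.97 for NRG1, 1.51 and 0.75 for JAG1, and −1.41 and −1.96 for ERBB4. Over the alternatives the adjusted p ran from 0.00339 to 0.316, from 0.00829 to 0.283 and from 9.44e-04 to 0.393. Against F53S, NRG1 was at 1.63 (0.131, and 0.00280 to 0.420 over the alternatives) and ERBB4 at −1.12 (0.512, and 0.0102 to 0.999992). Both were called there with slide as a term (0.0186 and 0.0102), with replicate number as a block and on slide 2 alone, and NRG1 also without WT 1 (0.0198).

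TFPI2 encodes a matrix-bound inhibitor of serine proteases that ADAMTS1 is known to cleave. It read −1.14, −0.39 and −0.40 in WT, −0.61, 0.12 and 0.37 in F53S, and 4.37, 4.07 and 4.11 in K57N. All K57N arrays lay above all others by a wide margin. TFPI2 rose by 4.83 against WT (SE 0.30, adjusted p = 2.83e-04), at 5.51 on slide 1 and 4.48 on slide 2, and was 4.22 above F53S (SE 0.30, adjusted p = 0.00109). Leaving out any 1 array kept both calls, with adjusted p-values up to 0.00362 and 0.0128, and the methods' t-test gave 0.0335 and 0.0558. The ranges over the alternatives were 2.20e-05 to 0.0335 and 7.53e-05 to 0.0558.

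VEGFC, the lymphatic growth factor activated by ADAMTS3 with CCBE1, read 0.08, −0.15 and −0.05 in WT, 0.77, 0.30 and 0.46 in F53S, and 1.47, 0.95 and 0.98 in K57N. No line overlapped with another. VEGFC rose by 1.17 in K57N against WT (SE 0.20, adjusted p = 0.0230), at 1.39 on slide 1 and 1.06 on slide 2, while F53S was at 0.55 from WT (adjusted p = 0.999998). The call was lost without WT 2 (0.106), WT 3 (0.102), F53S 3 (0.0530), K57N 1 (0.0624), K57N 2 (0.0676) or K57N 3 (0.0745). It was also lost without the filter on dim probes (0.150) and by the methods' t-test (0.109), over a range of 3.78e-04 to 0.150. The difference from F53S was 0.62 (adjusted p = 0.287).

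PAPLN encodes papilin, a matrix protein related to the ADAMTS-like proteins that is known to inhibit ADAMTS2. It read 0.44, 0.56 and 0.69 in WT, 0.11, 0.38 and 0.41 in F53S, and −0.77, −0.30 and −0.28 in K57N. Again no line overlapped with another. PAPLN fell by 1.01 in K57N against WT (SE 0.19, adjusted p = 0.0314), with −1.21 on slide 1 and −0.91 on slide 2. Leaving out F53S 1 kept the call, and leaving out any other array ended it, with −1.07 (0.0590) without WT 1, −1.01 (0.122) without WT 2, −0.95 (0.143) without WT 3, 0.0662 without F53S 2, 0.0661 without F53S 3, −0.85 (0.0763) without K57N 1, −1.09 (0.0926) without K57N 2 and −1.10 (0.0866) without K57N 3. Of the other settings, the call was kept with replicate number as a block, with slide as a term and with all 9 arrays required, and the methods' t-test gave it at an unadjusted p alone. It was lost in the others, with normexp at −0.92 (0.0414) and the mean of its probes at −0.76 (0.173). The adjusted p ran from 5.43e-04 to 0.209.

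CCBE1 and the procollagen gene COL1A1 were called lower as well once slide was a term. CCBE1 was at −2.68 (adjusted p = 0.108 without slide and 0.0278 with it) and was well above background on 2 arrays of WT, 3 of F53S and 1 of K57N, so the size of its difference is uncertain. It was −1.57 on slide 1 and −3.23 on slide 2, −1.28 with normexp background correction and −1.77 without WT 3. COL1A1, the brightest of the fibroblast markers and a substrate of ADAMTS2, was at −1.20 (0.0995 and 0.00327), with −1.59 on slide 1 and −1.01 on slide 2. The ranges over the alternatives were 0.0278 to 0.358 for CCBE1 and 0.00327 to 0.350 for COL1A1.

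**Figure D4:**
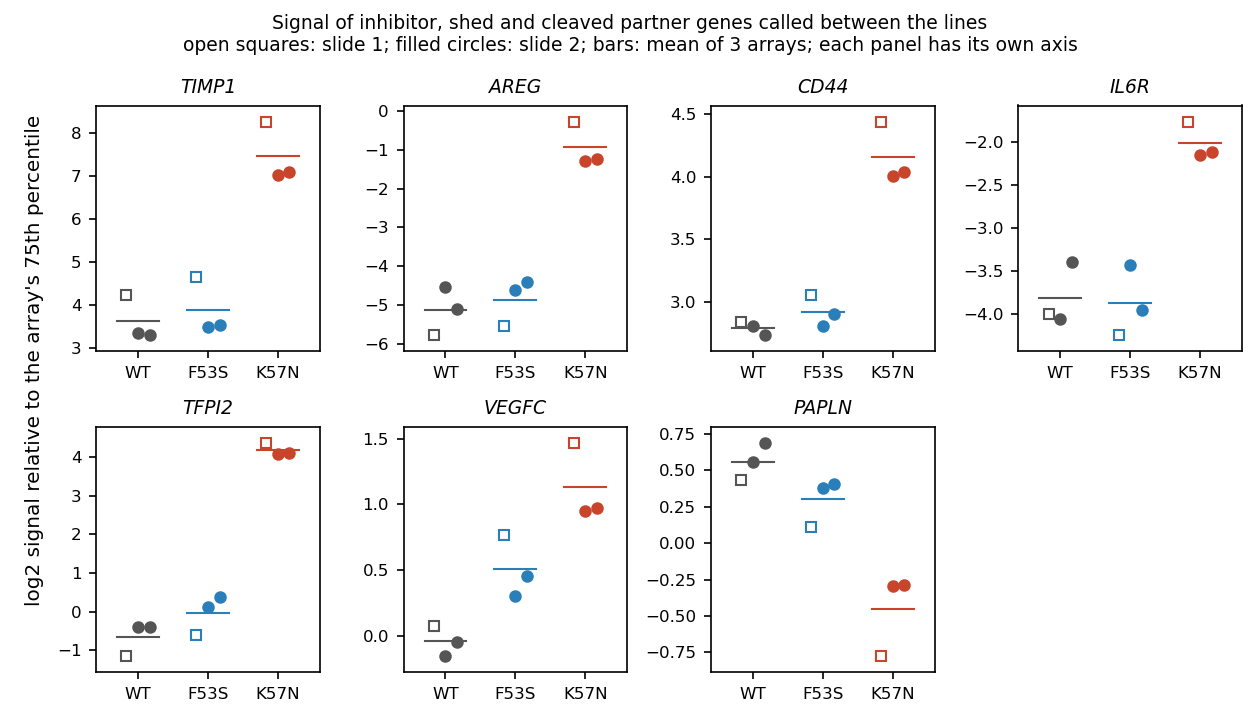
Log2 signal relative to the array's 75th percentile (vertical axes, 1 per panel) of the 7 partner genes called between the lines, with a point for each array, open squares for slide 1, filled circles for slide 2, and a bar for the mean of 3 arrays. All 3 K57N arrays lie above every WT and F53S array for TIMP1, AREG, CD44, IL6R, TFPI2 and VEGFC and below them for PAPLN.

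The promoters of TIMP1, AREG, TFPI2 and CD44 are shown because these genes were called higher in K57N against both WT and F53S. They are from RefSeq (build GRCh38.p14) and cover the 250 bases before the start, 5′ to 3′, with capitals on matches to the motifs named above. The stretches are chrX:47582186-47582435 (plus strand) for TIMP1, chr4:74444886-74445135 (plus strand) for AREG, chr7:93890754-93891003 (minus strand) for TFPI2 and chr11:35138921-35139170 (plus strand) for CD44. AREG holds TGACGTCA (CRE) 65 bases before the start and a GGGCGG match 9 bases before it. TFPI2 holds TGAATCA, which matches the letters TGANTCA searched for AP-1, 87 bases before the start. It also holds 2 GGGCGG matches, and TIMP1 and CD44 hold 2 GGGCGG matches each.
TIMP1: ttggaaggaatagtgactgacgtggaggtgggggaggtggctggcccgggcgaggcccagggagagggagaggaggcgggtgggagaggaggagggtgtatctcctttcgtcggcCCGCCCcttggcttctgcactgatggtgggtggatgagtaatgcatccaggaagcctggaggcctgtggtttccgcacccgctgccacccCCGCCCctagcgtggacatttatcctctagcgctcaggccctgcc
AREG: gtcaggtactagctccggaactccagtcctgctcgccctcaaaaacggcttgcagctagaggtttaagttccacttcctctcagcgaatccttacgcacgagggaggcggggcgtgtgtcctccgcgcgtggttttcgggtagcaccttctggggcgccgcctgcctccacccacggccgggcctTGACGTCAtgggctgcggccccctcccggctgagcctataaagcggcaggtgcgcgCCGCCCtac
TFPI2: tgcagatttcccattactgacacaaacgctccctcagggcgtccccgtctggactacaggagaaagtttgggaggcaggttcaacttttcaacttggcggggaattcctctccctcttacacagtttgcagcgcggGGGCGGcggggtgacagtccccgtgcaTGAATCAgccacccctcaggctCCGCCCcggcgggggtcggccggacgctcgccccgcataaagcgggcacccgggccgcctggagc
CD44: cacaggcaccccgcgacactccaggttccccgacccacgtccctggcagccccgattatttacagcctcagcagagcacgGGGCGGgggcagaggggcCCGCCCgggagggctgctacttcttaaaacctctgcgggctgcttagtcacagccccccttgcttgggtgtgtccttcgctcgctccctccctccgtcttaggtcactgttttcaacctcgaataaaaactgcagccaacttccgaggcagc

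Among the 72 promoters found for 57 partner genes, 3 held TGACGTCA (4.17%), 5 held TGANTCA (6.94%) and 51 held GGGCGG (70.8%). The shares over all promoters were 1.65%, 6.57% and 42.6%. CCGGAAG and GCGTGGGCG were each in 1 of the 72. The IL6R promoter in the table held none of the motifs.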

How the data were processed

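The authors hybridised Cy3-labelled RNA of 9 samples to Agilent one-colour arrays, and Feature Extraction 10.10.1.1 (submitters' processing notes) gave the deposited scanner files, whose processed signal is a background-corrected spot intensity on a linear scale. The deposited value table holds log2 values equal, within 0.05, to log2 of the processed signal less a constant per array on 100% of probes. Its column medians were −3.41, −3.85 and −3.54 in WT, −3.44, −3.76 and −3.56 in F53S, and −3.48, −3.63 and −3.65 in K57N, and what its constants stand for is unknown.

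From the scanner files, control and outlier spots were left out, repeated spots were averaged, and log2 signals were centred on each array's 75th percentile. Probes that passed the background filter (19274 genes) were fitted with limma 3.58.1 in R 4.3.3, with a mean per line. Probes were named through RefSeq accessions where these matched (29076 of 50598 probes, 83 of the 93 member probes), and names of both annotation versions, which differ between slides, were searched.

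Arrays with the same replicate number deviated together (r from 0.341 to 0.871 over 25324 probes). Arrays of different number that shared slide 2 did so as well (r from 0.435 to 0.651). With deviations taken within slide 2 alone, r of equal numbers was 0.206, 0.0497 and 0.0482. These values therefore do not show a pairing by replicate number apart from slide. The alternatives were normexp background correction (offset 50), quantile normalization, other filters on dim probes, the mean of a gene's probes, replicate number as a block, slide as a term, each slide alone, the deposited table, the methods' t-test, and leaving out each array. Group medians, partner genes, ADAM11 and ADAMTS13 under each alternative were added after seeing the data.

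Values on every array are given for members called with or without slide as a term, for ADAM9, ADAM10, ADAM12, ADAM15, ADAM17, ADAM19, ADAMTS1, ADAMTS4 and ADAMTS5, for members well above background on all 9 arrays with means more than 1 apart from WT on the log2 scale, and for partner genes called. Members and lists were chosen with earlier results of these data known. The number of arrays limits the precision. A further marker list is not reported here. The source names of WT replicates 2 and 3 read HEK294 and HEK295 in the labels, whereas their titles and cell line entries read HEK293, which were followed.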

Additional observations from a re-analysis of the deposited data

Results flagged for a closer look

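Partner genes whose difference from WT was not the same in both mutants, by limma's test of K57N against F53S, were TIMP1 at 3.55 on the log2 scale, AREG at 3.94, CD44 at 1.24 and TFPI2 at 4.22. Their adjusted p-values were 0.0103, 0.00541, 0.0133 and 0.00109. In each of these genes K57N was higher than F53S in 3 of 3 pairs of equal replicate number. The pairs are no separate evidence, since the genes were picked by that test on the same arrays. All 4 lost that call by the methods' t-test after adjustment (0.167, 0.110, 0.121 and 0.0558), AREG lost it with normexp background correction (1.89, adjusted p = 0.109), and CD44 lost it with no filter on dim probes (0.130) and with the mean of its probes (0.160). The lowest adjusted p-values over their alternatives were 2.84e-06, 0.00148, 4.44e-04 and 7.53e-05. IL6R, at 1.85, met the same limits but was tested through K57N alone, the line in which it was high, and when dim probes were kept its call was lost (0.104), so no difference between the mutants is stated for it. AREG was also tested through K57N alone, being well above background on 2 of 3 F53S arrays, so the size of its difference is uncertain. It kept its call with no filter (0.0272), where its probe was still chosen as the brightest over all arrays, K57N included.

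No ADAM or ADAMTS gene passed that test in the main limma fit, which has no slide term, the smallest adjusted p being 0.0516 for ADAMTS8. At an unadjusted p below 0.05 and 2-fold that fit gave 1, ADAMTS9. Other limma fits called ADAMTS9. Its adjusted p was 0.0448 with quantile normalization and 0.0208 without WT 1, where slide was not modelled. It was 0.0129 with replicate number as a block and 0.0148 on slide 2 alone. The replicate block also takes up the slide difference, since slide 1 held replicate 1 alone, and slide 2 alone has no such difference. With slide as a term ADAMTS9 was called (1.51, adjusted p = 0.00527), as were the partner genes NRG1 (1.63, adjusted p = 0.0186) and ERBB4 (−1.12, adjusted p = 0.0102). Over their alternatives the adjusted p ran from 0.00527 to 0.395, from 0.00280 to 0.420 and from 0.0102 to 0.999992.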

How the results depend on the processing

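Counts of members called in K57N against WT were 1 higher and 1 lower. With normexp background correction, without the filter on dim probes and by the methods' t-test after Benjamini-Hochberg adjustment they were 0 and 0, and with only probes well above background on all 9 arrays 0 were higher. With replicate number as a block, with slide as a term and by the methods' t-test at unadjusted p, 2 were lower (ADAMTS8 and ADAMTS10). Leaving out 1 array gave 0 to 1 in each direction. Against F53S, 1 member was higher in place of 0 (ADAMTS9) with quantile normalization, the replicate block, slide as a term, slide 2 alone and the methods' t-test at unadjusted p, and 0 to 1 when 1 array was left out.

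Partner genes called higher in K57N against WT were 6, but 3 without the filter on dim probes and 1 by the methods' t-test after adjustment. Partner genes called lower were 1, but 0 with quantile normalization, without the filter, with the mean of a gene's probes, in the deposited table and by the adjusted methods' t-test, 2 on slide 2 alone, and 4 with the replicate block, with slide as a term and by the methods' t-test at unadjusted p, with 0 to 1 when 1 array was left out. Against F53S, 5 partner genes were higher, but 3 with normexp, without the filter, with all 9 arrays required and with the mean of probes, 0 by the adjusted methods' t-test, and 2 to 6 when 1 array was left out. With the replicate block, slide as a term, slide 2 alone or the methods' t-test at unadjusted p, 1 partner gene was lower in place of 0. The replicate block changed no other count of members or partner genes beyond 1.5 times.

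Over all genes, K57N against WT gave 291 higher and 143 lower, 494 and 380 with slide as a term, and 145 and 45 with normexp. K57N against F53S gave 185 and 48, 364 and 214, and 73 and 4. The median SE was 0.292, and 0.135 with slide as a term. Group medians added after the data had been seen ranged, with 1 array left out, from −0.50 to −0.13 for ADAMTS in K57N against WT and from −0.17 to 0.11 in F53S against WT, and from −0.23 to −0.02 for ADAM in K57N against WT. The cause of these shifts was not tested. No called difference turned its sign. Signal over background limits the dim genes: AREG, IL6R, CCBE1, ADAM9, ADAM12, ADAMTS16, DUSP5, SPRY4, ETV4, ETV5 and PHLDA1 were not well above background on every array.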
